A study of Mus musculus with 54 samples.

Results

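The first hours after irradiation of NIH3T3 cells, a long-established mouse embryo fibroblast line, were compared here as an early window against the hours that followed it. The early window held the libraries at 1 and 2 h after 10 Gy of gamma radiation (n = 2) and the later window those at 3, 4 and 5 h after the same dose (n = 3). These were 5 of 54 messenger RNA libraries of the series, and 5 of its 14 NIH3T3 libraries, which also cover an untreated culture at 0 h, every hour from 6 to 12 h, and 24 h. Each hour had 1 library, so neighbouring hours served as replicates of a window. No label describes them as separate cultures, and a p-value here reflects only how far such libraries scatter, which may be technical. Those genes were described whose FPKM averaged 1 or more over the 5 libraries, which were 10331 of the 13611 genes of the deposited table. FPKM counts sequenced fragments relative to transcript length and to the size of the library. No unirradiated culture was sampled after 0 h, so time in culture and time after radiation cannot be told apart. The labels give no genotype or agent beyond the line and the radiation, and NIH3T3 is 1 line.

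The tumour suppressor p53 is a transcription factor that DNA breaks stabilise through the kinases ATM and CHK2. It switches on genes that halt the cell cycle, repair DNA or kill the cell, and it switches on Mdm2, the ubiquitin ligase that destroys p53. This loop lets p53 protein rise and fall in pulses after DNA damage in cultured cells. The protein was not measured here. The windows therefore ask only how the messenger RNA of p53 targets and of other early response genes stood in the first 2 hours and in the 3 hours after them.

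The relative depth of the 5 libraries, read from the commonest ratio between faintly expressed genes, differed by up to 1.4 times, with the 2 h and 5 h libraries the deepest at 1.48 and 1.67 times the 0 h library. Pearson correlations of log2(FPKM + 1) between them ran from 0.982 to 0.989, and that between the 1 h and 2 h libraries was 0.986. The summed FPKM of 16 fibroblast genes, among them collagens and fibronectin, ran from 13078 to 14880 at 1 to 2 h, against 12376 to 14417 at 3 to 5 h. B cell markers were at 0 in all 5 libraries, and intestinal, T cell, erythroid and endothelial markers each summed to at most 0.732 FPKM. Myeloid markers summed to 7.20 and 9.62 FPKM at 1 to 2 h, against 8.26 to 11.3 FPKM at 3 to 5 h. Pancreas markers summed to 6.54 and 8.11 FPKM, against 5.58 to 9.92 FPKM, all from Cela1, and keratinocyte markers to 1.98 and 1.997 FPKM, against 1.52 to 2.24 FPKM.

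Mdm2 was the only gene whose difference between the windows passed the test. It was higher at 1 to 2 h, as 1 of 10331 genes tested (0.00968%), and no gene passed in the other direction (0%). Mdm2 stood at 95.3 and 98.2 FPKM at 1 and 2 h, against 43.5, 58.0 and 53.1 FPKM at 3, 4 and 5 h. Both early libraries lay far above all 3 later ones, and the windows did not overlap. The difference was 0.91 ± 0.12 on the log2 scale (log2 fold change of FPKM + 1 with its standard error), with an adjusted p of 0.0337 by limma over all genes tested. In mean FPKM the early window was 1.88 times the later one and 3.20 times the untreated library, which held 30.2 FPKM. Mdm2 is on chromosome 10 at 117688875 to 117710758 in GRCm38.p6.

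The call on Mdm2 rested on few libraries. Its adjusted p was 0.079 by limma without the 1 h library, at a log2 difference of 0.93, and ran from 0.0238 to 0.0447 without each of the other 4. With the 5 libraries fitted alone it was 0.328 at the same difference of 0.91. The adjusted p for Mdm2 by limma was 0.0501 with a pseudocount of 0.1, 0.116 without the filter, 0.134 after quantile normalization and 0.0823 without a variance trend. With the 3 h library counted as early, the Mdm2 difference was 0.41 (adjusted p 0.546 by limma). An exact permutation test over the 5 libraries cannot go below a two-sided p of 0.2, which is the value it gave for Mdm2 (10 splits). Before adjustment, limma gave p below 0.05 for 584 genes higher at 1 to 2 h (5.65%) and for 541 genes lower (5.24%).

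Promoter sequence of Mdm2 is shown because it is the gene that passed, and that of Cdkn1a because it is the classical p53 target and ranked 4 of all genes by p. The lines give the 250 bases before the RefSeq transcript start in GRCm38.p6, 5′ to 3′ on the strand of the gene. Capitals mark exact matches to the p53 half-site, the 10-base consensus of which p53 binds a pair.
Mdm2, chr10:117710759-117711008, minus strand: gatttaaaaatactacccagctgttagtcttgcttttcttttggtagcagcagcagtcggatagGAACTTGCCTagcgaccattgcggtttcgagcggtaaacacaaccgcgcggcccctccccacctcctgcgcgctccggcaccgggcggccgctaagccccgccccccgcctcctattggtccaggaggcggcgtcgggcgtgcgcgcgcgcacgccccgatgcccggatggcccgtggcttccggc
Cdkn1a, chr17:29090729-29090978, plus strand: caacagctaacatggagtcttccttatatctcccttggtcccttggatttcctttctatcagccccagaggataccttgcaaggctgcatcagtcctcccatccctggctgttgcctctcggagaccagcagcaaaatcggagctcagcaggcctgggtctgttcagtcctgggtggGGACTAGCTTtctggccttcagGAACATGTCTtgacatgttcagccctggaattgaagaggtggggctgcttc
Mdm2 held 1 half-site, starting 186 bases before the transcript start, and Cdkn1a held 2, starting 73 and 51 bases before it. Windows were found for 7988 of the 10331 genes tested, and 628 of these (7.86%) held a half-site on either strand. Such shares count every RefSeq window of a gene in full, past the transcript start too, and not only the 250 bases shown. Of the 42 genes of the p53 lists with a window, 17 (40.5%) held one, and of the 12 with a window among those that stood higher at 1 to 2 h without overlap, 3 did (25%). An exact pair of half-sites without a spacer was in none of the 7988 windows. Pairs with a mismatch or a spacer were not searched, so these windows may hold such pairs. These counts describe letters in short windows and say nothing of binding.

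The p53 lists held 58 genes, of which 55 were in the table and 50 were expressed enough to be tested. They were divided by role into feedback on p53, growth arrest, apoptosis, and repair and metabolism. Of the 50, 13 stood higher at 1 to 2 h in both libraries than in any library at 3 to 5 h (26%), against 14.8% of all genes tested, and 5 stood lower in the same sense (10%), against 12.6%. Their median log2 difference was 0.08, against 0.01 over all genes tested. Mdm2 apart, no member passed the test.

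**Figure D1:**
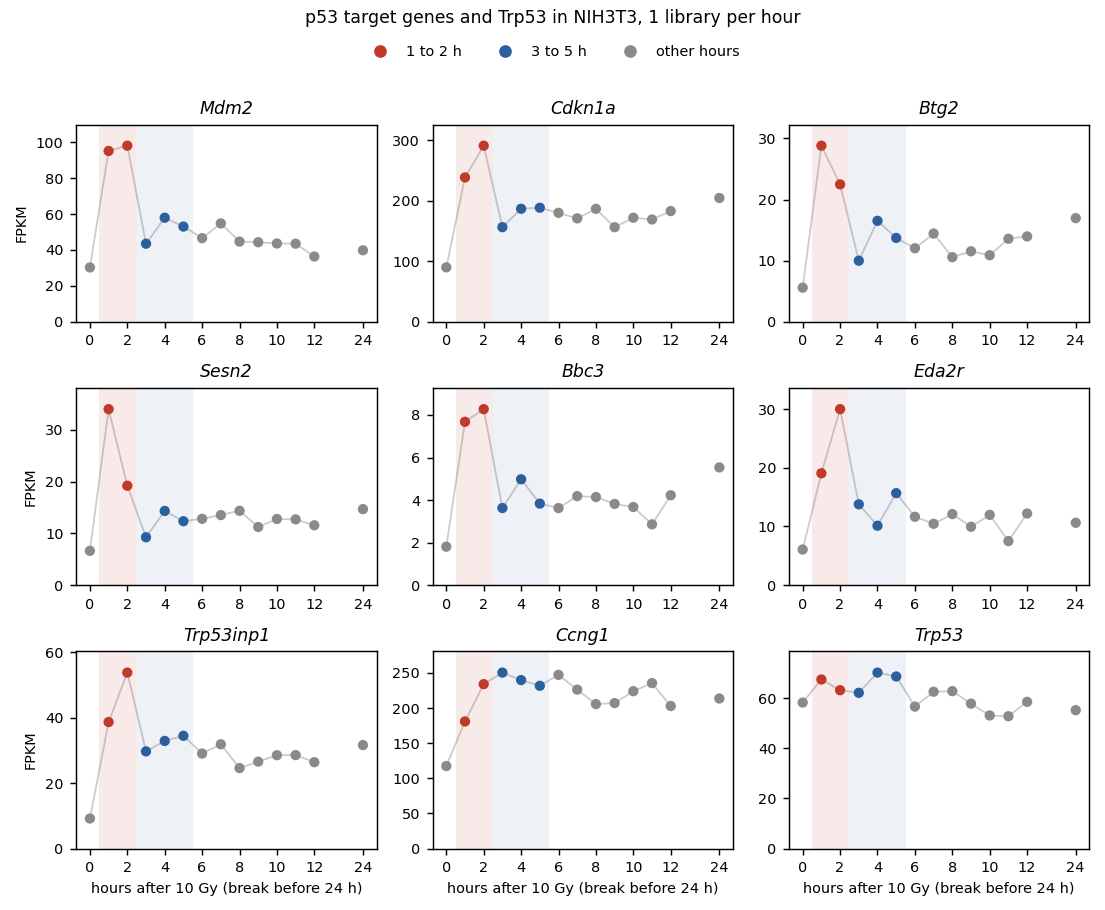
FPKM (y axis, from 0) of 8 p53 target genes and Trp53 in the 14 NIH3T3 libraries by hour after 10 Gy (x axis, with a break before 24 h). Each point is 1 library, red at 1 to 2 h, blue at 3 to 5 h and grey at other hours. Mdm2, Cdkn1a, Btg2, Sesn2, Bbc3, Eda2r and Trp53inp1 stand highest at 1 or 2 h, while Ccng1 and Trp53 do not separate the windows.

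Among the genes that feed back on p53, Trp53inp1, a stress protein that helps activate p53, stood at 38.7 and 53.8 FPKM at 1 and 2 h, against 29.7, 32.9 and 34.5 FPKM at 3 to 5 h (log2 difference 0.49, adjusted p 0.215 by limma). Ppm1d, the phosphatase WIP1 that silences ATM and p53, stood at 7.06 and 9.79 FPKM, against 5.41, 6.49 and 6.67 FPKM. Both were above every later library without passing the test. Ccng1, which encodes cyclin G1, had a different course, with 181 and 234 FPKM at 1 and 2 h, against 250.4, 239.7 and 232 FPKM at 3 to 5 h. It had left its untreated level of 117 FPKM but its windows overlapped (log2 difference -0.22, adjusted p 0.471 by limma). Trp53 itself stood at 67.4 and 63.2 FPKM, against 62.1, 70.2 and 68.6 FPKM, a log2 difference of -0.04 ± 0.08. Mdm4, the partner of Mdm2, had a log2 difference of -0.14 ± 0.15, and the ubiquitin ligases Rchy1 and Rfwd2 had 0.13 ± 0.14 and 0.01 ± 0.13.

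Among the growth arrest genes, Cdkn1a, which encodes the kinase inhibitor p21, stood at 238 and 291 FPKM at 1 and 2 h, against 156, 187 and 188 FPKM at 3 to 5 h. The windows did not overlap, and the log2 difference was 0.58 ± 0.10 (adjusted p 0.128 by limma). Btg2, an antiproliferative p53 target, stood at 28.8 and 22.5 FPKM, against 9.99, 16.5 and 13.7 FPKM (log2 difference 0.90 ± 0.18, adjusted p 0.128 by limma). Phlda3, an inhibitor of the kinase AKT, stood at 109 and 148 FPKM, against 105, 94.2 and 103 FPKM. These 3 were the members of this list that stood above all later libraries, of 10 tested (30%, against 14.8% of all genes). The median log2 difference of the list was 0.26, and 0.17 without the 1 h library. The other 7 overlapped. Plk3 and Plk2, kinases of the polo family, were high at 1 h alone, with 10.2 and 86.5 FPKM there and 6.23 and 61.8 FPKM at 2 h, against 4.35 to 6.87 and 57.3 to 70.9 FPKM at 3 to 5 h. Zmat3, an RNA-binding p53 target, stood at 19.4 and 31.0 FPKM, against 26.6, 24.04 and 26.3 FPKM.

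Among the apoptosis genes, Bbc3, which encodes the BH3-only killer PUMA, stood at 7.68 and 8.27 FPKM at 1 and 2 h, against 3.62, 4.98 and 3.83 FPKM at 3 to 5 h (log2 difference 0.81 ± 0.15, adjusted p 0.128 by limma). Eda2r, a death receptor of the TNF family on the X chromosome, stood at 19.1 and 30.0 FPKM, against 13.8, 10.1 and 15.7 FPKM. Ddias, which counters apoptosis after DNA damage, stood at 17.0 and 20.6 FPKM, against 11.7, 12.5 and 12.1 FPKM, and Pidd1, the core of the PIDDosome, at 6.91 and 9.23 FPKM, against 4.95, 5.48 and 5.85 FPKM. These 4 of 13 were the members above all later libraries (30.8%, against 14.8% of all genes), and none was below them (against 12.6%). Pmaip1, the BH3-only gene NOXA, stood at 5.34 and 6.99 FPKM, against 5.45, 3.53 and 3.66 FPKM, so that its 1 h library lay just under the 3 h one. Fas, the death receptor, stood at 13.96 and 31.3 FPKM, against 36.4, 21.9 and 18.1 FPKM, so that the 1 h library was the lowest of the 5 and the 3 h library the highest. Bax, the pore-forming protein of the mitochondrial outer membrane, stood at 208 and 242 FPKM, against 227, 232 and 239 FPKM, and at 233 FPKM untreated. The list's median log2 difference was 0.14. It was 0.44 without the 1 h library and -0.13 without the 2 h library, so its direction rests on the 2 h library.

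The repair and metabolism genes divided. Sesn2, a stress-induced inhibitor of mTORC1 signalling, stood at 34.0 and 19.2 FPKM at 1 and 2 h, against 9.24, 14.3 and 12.3 FPKM at 3 to 5 h, a log2 difference of 1.05 ± 0.19 (adjusted p 0.128 by limma). Slc19a2, a thiamine transporter, stood at 31.4 and 40.8 FPKM, against 24.1, 25.0 and 27.1 FPKM. Ddit4, another mTORC1 inhibitor, was high at 1 h alone, with 73.0 and 31.8 FPKM at 1 and 2 h, against 26.5, 33.8 and 26.4 FPKM. Gpx1, a glutathione peroxidase, stood at 92.2 and 94.8 FPKM, against 86.4, 84.1 and 83.2 FPKM. Sesn2, Slc19a2 and Gpx1 were the 3 of 19 members above all later libraries (15.8%, against 14.8% of all genes). In contrast 13 of the 19 had a negative difference, and 5 stood below all later libraries (26.3%, against 12.6% of all genes), namely Ak1, Mgmt, the sestrin Sesn1, the pantothenate kinase Pank1 and the ultraviolet damage sensor Ddb2. Ak1, an adenylate kinase, stood at 51.0 and 66.9 FPKM, against 70.4, 73.0 and 76.4 FPKM (log2 difference -0.32 ± 0.10). Mgmt, which removes alkyl groups from DNA, stood at 17.1 and 22.4 FPKM, against 22.5, 23.9 and 28.6 FPKM. Rrm2b, the p53-inducible ribonucleotide reductase subunit, had a difference of 0.01 ± 0.16. The list's median log2 difference was -0.11, and it was -0.04 without the 1 h library and -0.27 without the 2 h library.

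**Figure D2:**
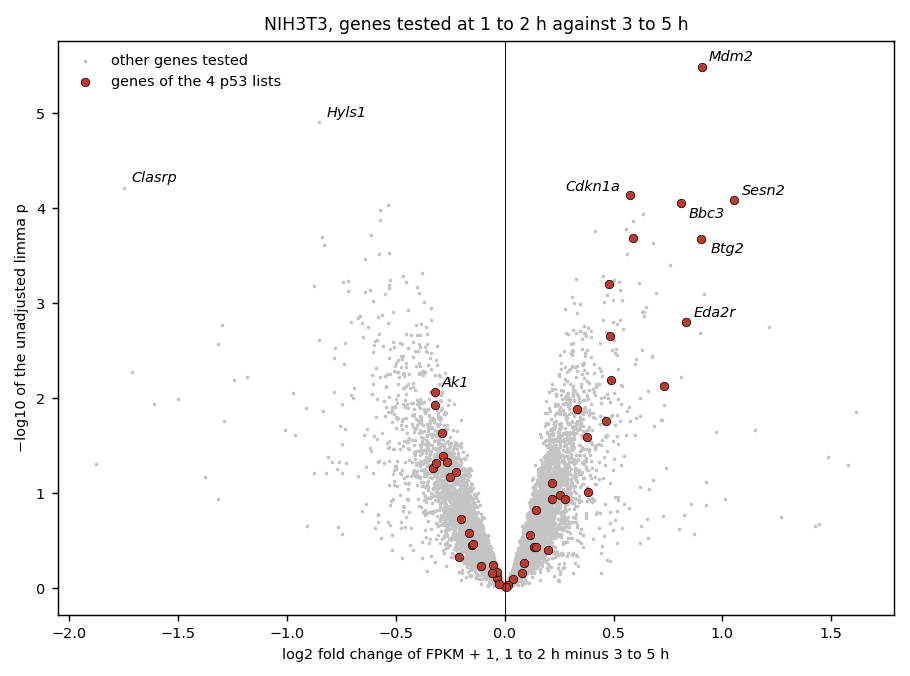
Log2 fold change of FPKM + 1, 1 to 2 h minus 3 to 5 h (x axis), against −log10 of the unadjusted limma p (y axis) for the 10331 genes tested, 1 point per gene, with the 50 tested genes of the p53 lists in red. Mdm2 has the smallest p of all genes, and Cdkn1a, Sesn2 and Bbc3 rank 4 to 6, while Hyls1 and Clasrp lead on the side lower at 1 to 2 h.

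By p alone, Mdm2 ranked first of all genes, and Cdkn1a, Sesn2 and Bbc3 ranked 4, 5 and 6. Rank 2 and rank 3 were genes that stood lower at 1 to 2 h. Hyls1, a centriole protein, stood at 4.85 and 4.29 FPKM, against 8.33, 8.25 and 10.8 FPKM (log2 difference -0.85 ± 0.13, adjusted p 0.0643 by limma). Clasrp, a partner of splicing kinases, stood at 4.63 and 1.01 FPKM, against 9.19, 11.3 and 10.6 FPKM, and at 4.61 FPKM untreated.

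By a rule set after the values were seen, the 15 largest differences in each direction were listed among genes with an unadjusted limma p below 0.05, windows that did not overlap, and no library below 0.05 FPKM. Of the 10331 genes tested, 529 higher and 463 lower at 1 to 2 h met the rule. Of the 50 tested genes of the p53 lists, 12 and 2 did so. The 15 with the largest positive difference were Cyp39a1, Sesn2, Ccne2, Mdm2, Btg2, Smim8, Eda2r, Bbc3, Slc30a1, Fam180a, Fam212b, Zfp606, Tdp1, Tmem201 and Xrcc6bp1, 5 of them from the p53 lists. The 15 with the largest negative difference were Gjc1, Clasrp, Pomgnt2, Spsb2, Phf1, Zfp219, Hyls1, Znrd1as, Ccdc28a, Zfp691, Il34, E130102H24Rik, 1810043H04Rik, Slc25a14 and Cmc4, and none was from those lists. Znrd1as is an antisense gene, and the unstranded libraries cannot tell its reads from those of the opposite strand. Slc30a1, a zinc exporter, had its value from 1 h alone, with 11.8 FPKM there and 4.26 FPKM at 2 h, against 3.42 to 3.84 FPKM at 3 to 5 h. Gjc1, a gap junction gene, owed its place to a single reading of 0.211 FPKM at 1 h, next to 11.8 FPKM at 2 h, against 12, 15.5 and 13.2 FPKM. Cyp39a1, an oxysterol hydroxylase, stood at 9.08 and 8.28 FPKM, against 1.94, 2.04 and 7.11 FPKM, and at 9.27 FPKM untreated, so that 2 low later libraries made the difference.

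The 1 h and 2 h libraries did not hold the same genes high. Without the 2 h library, 22 genes passed as higher and 37 as lower at the remaining hour, against 0 and 5 without the 1 h library, by the same limma threshold. The lone early library is then assumed to vary like the other windows. Genes that passed as higher without the 2 h library included Sesn2, Ddit4, Gadd45a and Mdm2 of the p53 lists. Outside those lists they included Atf3, Klf4, Id2, Chac1, Herpud1 and Ppp1r15a. Among the 37 was Ei24 of the p53 apoptosis list, with 40.2 FPKM at 1 h and 58.9 FPKM at 2 h, against 61.2, 58.3 and 59.1 FPKM at 3 to 5 h (log2 difference at 1 h alone -0.55, adjusted p 0.0492 by limma). Chac1, a glutathione-degrading enzyme induced by ATF4, stood at 51.0 FPKM at 1 h and 7.57 FPKM at 2 h, against 13.2, 18.2 and 12.6 FPKM at 3 to 5 h. Id2, an inhibitor of basic helix-loop-helix factors, stood at 138 and 56.3 FPKM, against 43.0, 62.6 and 54.6 FPKM. Atf3, a stress-induced transcription factor, stood at 5.25 and 1.95 FPKM, against 2.29, 1.42 and 1.23 FPKM. Klf4, a factor that restrains growth, stayed above all later libraries, with 44.8 and 30.7 FPKM, against 21.1, 26.9 and 23.1 FPKM.

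Growth factor and stress response genes outside the p53 lists varied from hour to hour. Of 25 immediate early genes tested, 5 stood above all later libraries (20%, against 14.8% of all genes) and 1, Dusp1, below them (4%, against 12.6%), shares that lie near or under those of all genes. Dusp1, a phosphatase of MAP kinases, stood at 12.5 and 14.97 FPKM, against 23.9, 20.8 and 19.9 FPKM (log2 difference -0.62 ± 0.12, adjusted p 0.128 by limma). Fos stood at 1.61 and 1.597 FPKM, against 1.79, 0.952 and 0.881 FPKM, and Egr1 at 20.8 and 11.8 FPKM, against 23.6, 8.41 and 6.03 FPKM. Myc stood at 27.2 and 12.3 FPKM, against 25.1, 15.5 and 14.7 FPKM. In all 3 the 3 h library stood above the 2 h one, and the windows overlapped. No member of the ERK feedback list, 12 genes, separated the windows, and among 21 genes of NF-kB and cytokines 3 stood above (14.3%) and 1 below (4.76%). In the YAP and SRF list, genes of contractile and adherent cells, 7 of 15 stood above (46.7%, against 14.8% of all genes). Their differences were small, such as 0.35 for Myl9, 0.18 for Tpm1 and 0.20 for Acta2. The list median was 0.13, and 0.03 without the 1 h library. Relative to the mean at 3 to 5 h, it was 0.39 untreated, 0.21 at 1 h and 0.03 at 2 h.

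**Figure D3:**
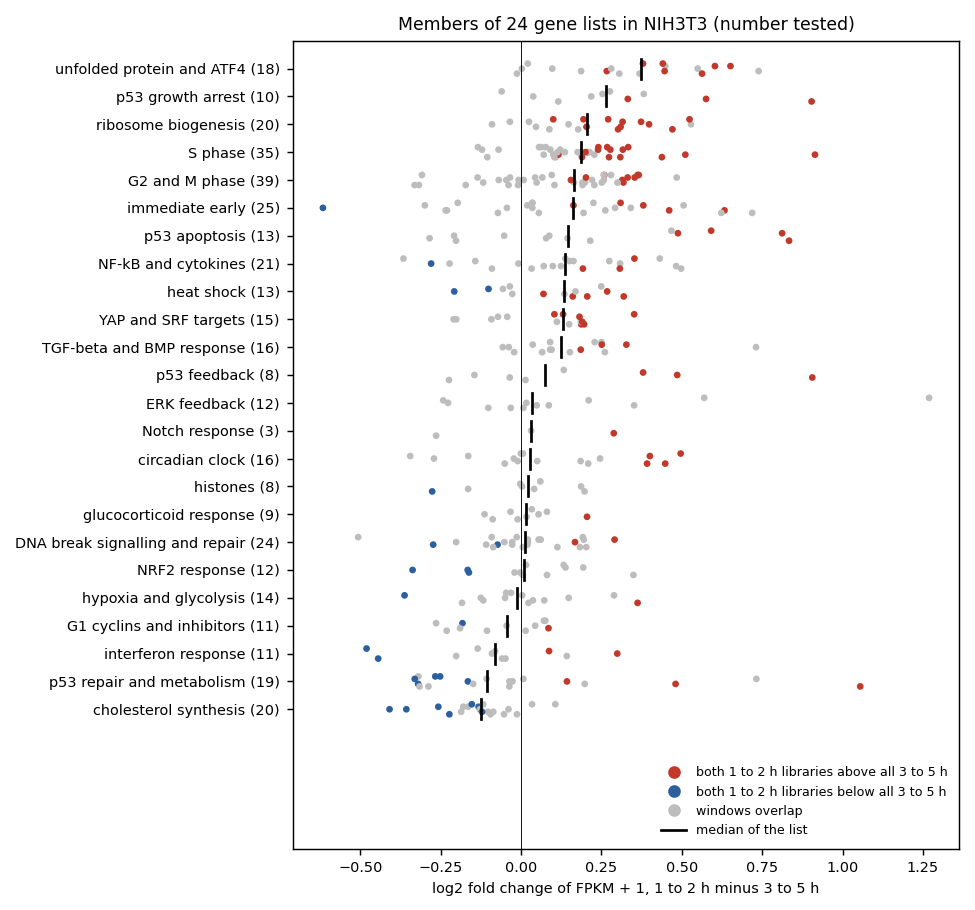
Log2 fold change of FPKM + 1, 1 to 2 h minus 3 to 5 h (x axis), of the tested members of 24 gene lists (rows, ordered by median). Points are genes, red where both early libraries lie above all 3 later ones, blue where both lie below, grey where the windows overlap, and black bars are list medians. The unfolded protein and ATF4 list has the highest median, 0.37 (0.11 without the 1 h library), and cholesterol synthesis the lowest, -0.12.

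The unfolded protein and ATF4 list held chaperones of the endoplasmic reticulum and genes of amino acid stress, and had the largest median difference of the 24 lists, 0.37 over 18 genes. It stood above all later libraries in 7 members (38.9%, against 14.8% of all genes) and below them in none (against 12.6%). Relative to the mean at 3 to 5 h, the list median was 0.39 untreated, 0.58 at 1 h and 0.11 at 2 h. At 9 to 12 h it ran from 0.15 to 0.44. The list was thus above its untreated level at 1 h and below it at 2 h. Hspa5, the chaperone BiP, stood at 509 and 426 FPKM at 1 and 2 h, against 369, 270.5 and 261 FPKM at 3 to 5 h (log2 difference 0.65 ± 0.16, adjusted p 0.195 by limma). The untreated library held 539 FPKM, and the libraries at 9 to 12 h held 434 to 499.6 FPKM, so the later window was a low point between higher values. Manf, a secreted stress protein, stood at 75.3 and 67.2 FPKM, against 54.5, 45.0 and 44.6 FPKM, and at 85.0 FPKM untreated. Sdf2l1, a cofactor of BiP, stood at 21.7 and 12.4 FPKM, against 11.4, 10.5 and 9.62 FPKM. Trib3, a pseudokinase target of ATF4, stood at 18.4 and 8.48 FPKM, against 5.03, 12.5 and 5.62 FPKM, and overlapped. The list median was 0.58 without the 2 h library and 0.11 without the 1 h library, so its size rests on the 1 h library. Without that library its place as the largest was lost. The medians of p53 apoptosis (0.44), ribosome biogenesis (0.19), NF-kB and cytokines (0.19) and p53 growth arrest (0.17) were then higher. So were those of S phase (0.16), p53 feedback (0.16) and circadian clock (0.14).

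The 250 bases before the Hspa5 start are shown because this gene is the standard reporter of the unfolded protein response. Capitals mark the exact match to the ER stress element, searched on both strands as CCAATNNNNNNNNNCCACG, which contains a CCAAT box. Looser matches were not searched.
Hspa5, chr2:34771840-34772089, plus strand: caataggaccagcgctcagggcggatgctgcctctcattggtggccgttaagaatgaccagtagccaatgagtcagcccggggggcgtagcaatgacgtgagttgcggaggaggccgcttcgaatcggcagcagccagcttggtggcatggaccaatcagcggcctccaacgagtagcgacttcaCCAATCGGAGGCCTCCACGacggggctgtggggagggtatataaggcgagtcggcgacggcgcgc
The element started 65 bases before the transcript start and was in the windows of 13 of 7988 genes (0.163%). Of 16 genes of the list with a window 2 held it, Hspa5 and Creld2. Of the other motifs searched on both strands, the 42 p53 list genes with a window held the CCAAT box in 59.5%, against 43.7% of all windows. They held TTTGAA in 16.7%, against 13.7%, CACGTG in 14.3%, against 12.5%, TGACGTCA in 7.14%, against 3.88%, and TGANTCA in 7.14%, against 5.66%. The NF-kB site was in 14.3%, against 12.3%, and the CArG box in 2.38%, against 1.55%. The motif search for the p53 half-site and the ER stress element was added after the values were seen.

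**Figure D4:**
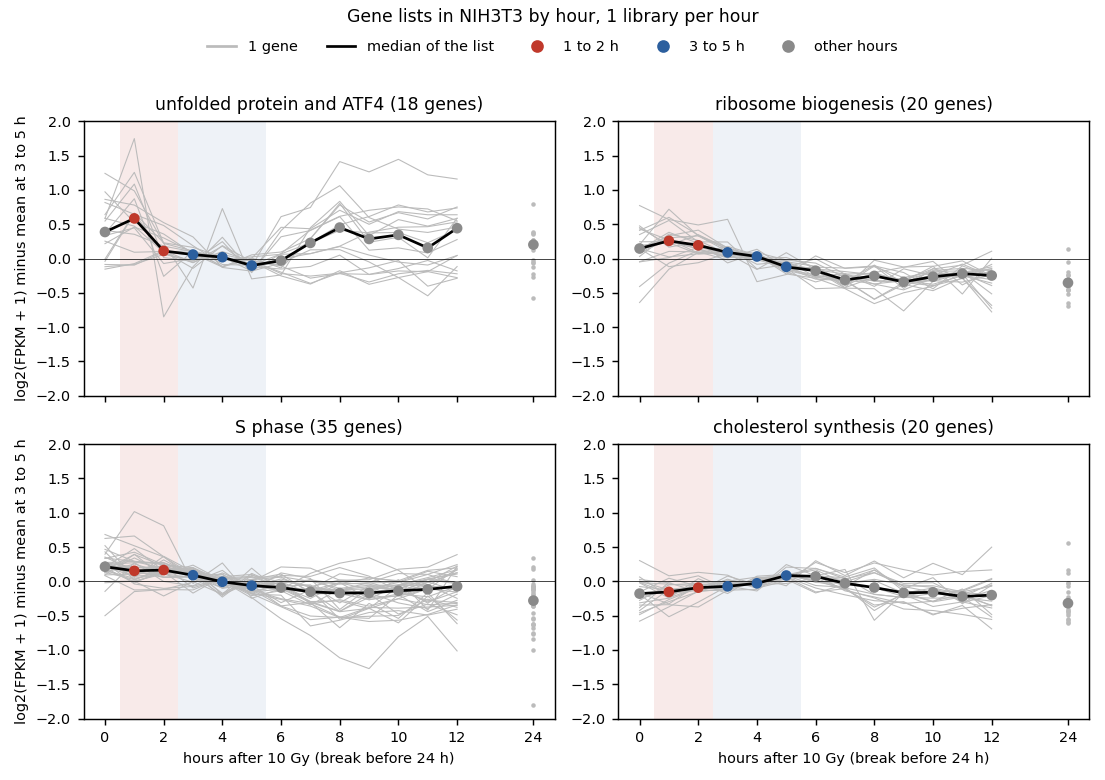
Log2(FPKM + 1) minus the mean at 3 to 5 h (y axis) by hour after 10 Gy (x axis, with a break before 24 h) for members of 4 gene lists in NIH3T3. Grey lines and small points are genes, and black lines are list medians with points red at 1 to 2 h, blue at 3 to 5 h and grey at other hours. The unfolded protein median stands at 0.39 untreated, 0.58 at 1 h, 0.11 at 2 h and -0.10 at 5 h. The ribosome biogenesis median declines from 0.26 at 1 h to -0.31 at 7 h.

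Genes for making ribosomes and for copying DNA stood slightly higher at 1 to 2 h than at 3 to 5 h, none of them past the threshold. Relative to the mean at 3 to 5 h, the S phase median was 0.21 untreated, 0.15 at 1 h and 0.16 at 2 h. It thus did not rise from the untreated library. The ribosome biogenesis median was 0.15 untreated, 0.26 at 1 h and 0.19 at 2 h. Of 20 ribosome biogenesis genes, 11 stood above all later libraries (55%, against 14.8% of all genes) and none below (against 12.6%), with a list median of 0.20. Wdr43, of the nucleolar processing complex, stood at 47.3 and 35.9 FPKM, against 30.5, 29.8 and 25.1 FPKM (log2 difference 0.52 ± 0.12, adjusted p 0.172 by limma). Nop58, a protein of box C/D small nucleolar particles, stood at 147 and 123 FPKM, against 108, 95.8 and 87.8 FPKM, and Fbl, its methyltransferase fibrillarin, at 14.98 and 14.1 FPKM, against 15.02, 7.53 and 8.17 FPKM, with windows that overlapped at 3 h. Of 35 S phase genes, 15 stood above (42.9%, against 14.8% of all genes) and none below, with a median of 0.19 that was 0.11 without the 5 h library. Ccne2, which encodes cyclin E2, stood at 17.8 and 15.3 FPKM, against 8.09, 10.2 and 6.89 FPKM (log2 difference 0.91 ± 0.21, adjusted p 0.172 by limma). Ccne1, its paralog, stood at 30.9 and 27.5 FPKM, against 22.7, 18.3 and 23.1 FPKM, and Slbp, the histone mRNA binding protein, at 37.6 and 30.3 FPKM, against 23.9, 25.1 and 21.3 FPKM.

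Mitotic genes gave no single direction. Of 39 G2 and M phase genes, 9 stood above all later libraries (23.1%, against 14.8% of all genes) and none below (against 12.6%). The list median was 0.16, but it was -0.06 without the 1 h library. Relative to the mean at 3 to 5 h, this median was 0.55 untreated, 0.33 at 1 h and -0.06 at 2 h. Plk1, the main mitotic polo kinase, stood at 19.5 and 10.4 FPKM, against 10.1, 9.58 and 15.4 FPKM. Ccnb1, which encodes cyclin B1, stood at 13.8 and 10.4 FPKM, against 10.96, 11.5 and 13.95 FPKM, and at 19.7 FPKM untreated. Cdk1, its kinase, stood at 72.6 and 72.4 FPKM, against 66.4, 62.0 and 66.7 FPKM, a difference of 0.16 ± 0.08. Cenpa, the centromere histone, stood at 56.3 and 50.7 FPKM, against 42.8, 38.2 and 43.0 FPKM. Outside the mitotic list, Ccnd1, which encodes the G1 cyclin D1, stood at 71.9 and 73.0 FPKM, against 73.6, 70.9 and 70.7 FPKM, a difference of 0.01 ± 0.07.

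Cholesterol synthesis genes lay on the other side. Of 20 genes 7 stood below all later libraries (35%, against 12.6% of all genes) and none above (against 14.8%), with a median of -0.12. Relative to the mean at 3 to 5 h, this median was -0.18 untreated, -0.15 at 1 h and -0.09 at 2 h. It thus did not fall from the untreated library. Mvd, a decarboxylase of the mevalonate pathway, stood at 68.6 and 79.7 FPKM, against 93.9, 89.3 and 114 FPKM (log2 difference -0.41 ± 0.11, adjusted p 0.214 by limma). Dhcr7, the last reductase, stood at 22.9 and 22.4 FPKM, against 26.7, 30.2 and 31.1 FPKM. The untreated library held 86.5 FPKM of Mvd and 22.8 FPKM of Dhcr7. In the remaining lists the counts were small, to be read against 14.8% of all genes above and 12.6% below. Of 16 clock genes 4 stood above (25%), led by the repressor Nfil3 with 18.5 and 17.4 FPKM, against 11.4, 12.4 and 13.5 FPKM. Of 13 heat shock genes 5 stood above (38.5%) and 2 below (15.4%). Of 16 TGF-beta and BMP genes 3 stood above (18.8%), of 12 NRF2 genes 3 below (25%), and of 11 interferon genes 2 on each side (18.2%). Among 24 genes of DNA break signalling and repair, 2 stood above and 2 below (8.33% each).

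The hours from 6 to 12 were compared in the same way. Over all genes tested, 323 (3.13%) had all 3 libraries at 6 to 8 h above all 4 at 9 to 12 h, and 340 (3.29%) had them below. Mdm2 was among those above, with 44.7 to 54.8 FPKM at 6 to 8 h and 36.4 to 44.3 FPKM at 9 to 12 h. Of the 50 p53 genes tested, 9 were above (18%), among them Sesn2, Pidd1 and Ddit4, and 3 were below (6%). Cdkn1a overlapped, with 171 to 186 FPKM at 6 to 8 h and 156 to 183 FPKM at 9 to 12 h, and so did Btg2 and Bbc3. None of the libraries from 6 to 24 h came up to the 1 h or 2 h level of Mdm2, Cdkn1a, Btg2, Sesn2, Bbc3, Eda2r or Trp53inp1. The levels after the early window stayed above the untreated one in each of these 7 genes.

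Over the 14 NIH3T3 libraries, the 5 genes whose log2(FPKM + 1) was most like that of Mdm2 were Mybl1 (Pearson r 0.925), Slc19a2 (0.922), Fam212b (0.920), Slc7a1 (0.914) and Mical2 (0.910), given as a description in which all points share their libraries. Slc7a1, a cationic amino acid transporter, stood at 20.2 and 20.6 FPKM at 1 and 2 h, against 11.6, 14.47 and 12.4 FPKM at 3 to 5 h. Mybl1, which encodes the transcription factor A-MYB, stood at 5.55 and 7.36 FPKM, against 3.64, 4.28 and 4.49 FPKM. All 5 stood above every later library in both early ones.

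The same windows were set beside thymus, spleen and small intestine of C57B6 mice given 10 Gy, with 1 library per hour in each tissue. T cell markers summed to 1585 to 1956 FPKM in thymus at 1 to 5 h, B cell markers to 574 to 1710 FPKM in spleen, and intestinal epithelium markers to 34360 to 45460 FPKM in small intestine. In these bulk samples, fewer cells of a type and less RNA per cell cannot be told apart. The comparison was added after the values were seen, and the difference between NIH3T3 and a tissue was tested as an interaction in 1 limma fit over 44 libraries with 23 residual degrees of freedom. A positive value means that the early window stood higher, relative to the later one, in NIH3T3 than in the tissue. Against thymus, 362 of 9810 genes were positive (3.69%) and 102 negative (1.04%). Against spleen, 53 of 9694 were positive (0.547%) and 49 negative (0.505%). Against small intestine, none of 9233 genes passed in either direction (0% and 0%), with 349 positive and 302 negative at an unadjusted limma p below 0.05. No other tool was run for these counts.

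Mdm2 differed from both lymphoid tissues. It stood at 95.3 and 98.2 FPKM at 1 and 2 h and at 43.5, 58.0 and 53.1 FPKM at 3 to 5 h in NIH3T3. In thymus it stood at 72.8 and 86.5 FPKM, against 107, 108 and 96.8 FPKM, and in spleen at 79.3 and 104 FPKM, against 108, 120.4 and 98.8 FPKM. The interaction was 1.29 ± 0.19 against thymus (adjusted p 8.96e-05 by limma) and 1.16 ± 0.19 against spleen (adjusted p 0.00224 by limma). In small intestine Mdm2 stood at 79.8 and 86.7 FPKM, against 67.8, 55.6 and 53.7 FPKM, both early libraries above all later ones as in NIH3T3, and the interaction was 0.41 ± 0.19 (adjusted p 0.682 by limma). That p does not show that the 2 systems act alike.

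Against thymus, 11 of 50 p53 list genes were positive (22%, against 3.69% of all genes) and none negative (against 1.04%). Against spleen 8 of 48 were positive (16.7%, against 0.547%) and none negative (against 0.505%). Cdkn1a, at 48.3 and 137 FPKM in thymus at 1 and 2 h, against 228, 268 and 233 FPKM at 3 to 5 h, gave 2.14 ± 0.34 (adjusted p 0.000329 by limma), and Gadd45a, a growth arrest gene, gave 2.25 ± 0.29. Sesn2 gave 1.58 ± 0.28 and Ier5 0.99 ± 0.19 against thymus. For Gadd45a and Ier5 the NIH3T3 windows overlapped, with log2 differences of 0.25 and 0.12. Most of both interactions came from lower early values in thymus. Gadd45a stood there at 9.74 and 12.9 FPKM at 1 and 2 h, against 30.9, 60.5 and 58.6 FPKM at 3 to 5 h. The thymus difference of Ier5 was -0.87. Mdm2, Cdkn1a, Gadd45a, Sesn2 and Ier5 kept their calls against thymus without any 1 of the 10 libraries compared, and Mdm2, Btg2 and Pidd1 kept theirs against spleen. Without the 1 h thymus library the calls on Btg2 (1.27, adjusted p 0.0506 by limma), Bbc3 (0.91, 0.102), Plk2 (0.96, 0.212) and Plk3 (1.23, 0.3) were lost, and without the 1 h NIH3T3 library those on Plk2 (1.16, 0.0844) and Plk3 (1.66, 0.104). That library also ended the call on Sesn2 against spleen (1.04, adjusted p 0.0843 by limma). The calls on Ak1 and Mgmt against thymus ended without any 1 of 9 and 7 libraries, and those on Gadd45a, Gtse1, Mgmt and Zmat3 against spleen without any 1 of 7, 7, 6 and 6. With the 3 h libraries counted as early, 18 of these 19 calls on p53 genes ended, all but that on Gadd45a against thymus.

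Within thymus, spleen and small intestine, a larger share of the p53 genes than of all genes stood below every later library. In thymus 24 of 50 stood below all later libraries (48%) and 5 above (10%), against 25.2% and 24.2% of all genes. In spleen 25 of 48 stood below (52.1%) and 5 above (10.4%), against 16.1% and 19.6%. In small intestine 11 of 49 stood below (22.4%) and 5 above (10.2%), against 11.8% and 13.8%. Btg2 stood at 113 and 189 FPKM at 1 and 2 h in thymus, against 279, 234 and 224 FPKM, and Bbc3 at 23.6 and 45.1 FPKM, against 45.4, 51.0 and 48.6 FPKM. In spleen Bbc3 stood at 49.2 and 65.1 FPKM, against 55.7, 53.2 and 42.1 FPKM, with windows that overlapped, and its interaction was 0.64 ± 0.27 (adjusted p 0.266 by limma).

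**Figure D5:**
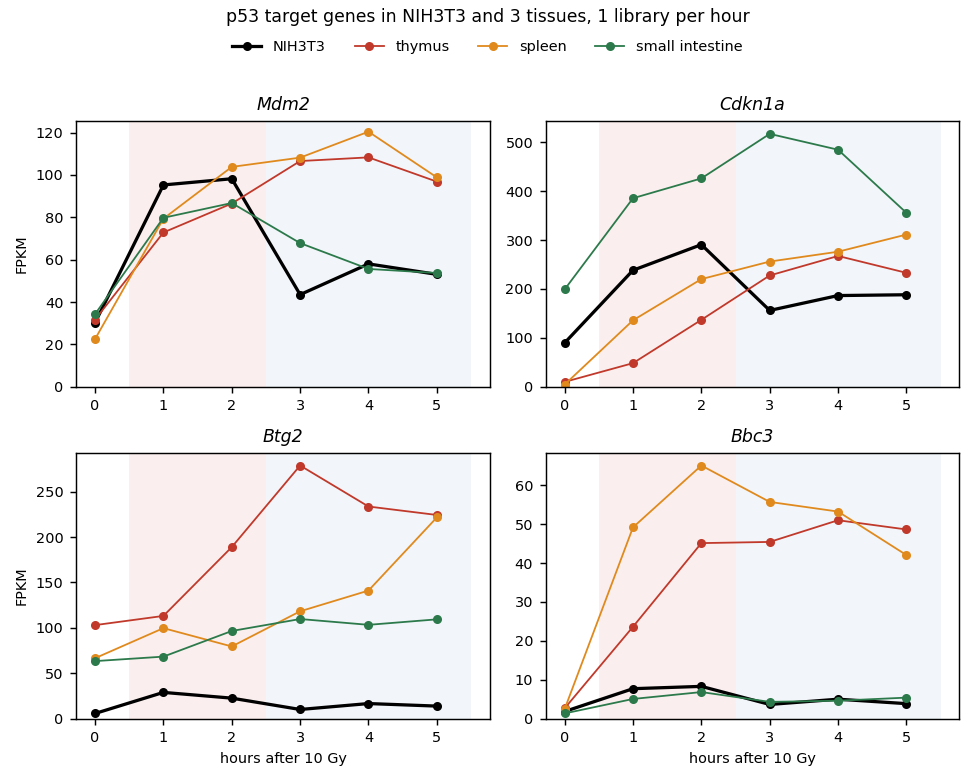
FPKM (y axis, from 0) of Mdm2, Cdkn1a, Btg2 and Bbc3 at 0 to 5 h after 10 Gy (x axis) in NIH3T3 (black), thymus (red), spleen (orange) and small intestine (green), 1 library per point. In NIH3T3 all 4 genes stand higher at 1 and 2 h than at 3 to 5 h, whereas in thymus all 4 stand lower at 1 and 2 h.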

How the data were processed

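The authors deposited FPKM values for 13611 genes in 54 libraries. Per the submitters' processing notes, TopHat2 2.1.0, Cufflinks 2.1.1 and the build mm10 were used. Polyadenylated RNA and unstranded libraries are stated in the labels' protocols, which describe tissue handling for the cell line too. Whether values were scaled further was not stated in the sources used here. Fragment totals are not given, so no counting interval was computed.

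From the deposited FPKM, log2(FPKM + 1) was fitted with limma 3.58.1 in R 4.3.3 over the 14 NIH3T3 libraries, with 1 mean per window (0, 1 to 2, 3 to 5, 6 to 8, 9 to 12 and 24 h), 8 residual degrees of freedom and a variance trend. Genes with mean FPKM of at least 1 over 1 to 5 h were tested, two-sided, and called at a Benjamini-Hochberg adjusted p below 0.05. The pseudocount of 1 understates the change of low genes. Relative depth was read from the commonest ratio, within 0.03 on the log2 scale, of values below 1 FPKM. The function was tested on simulated data.

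Genes were named as the 15 highest and lowest called, a fixed set of p53, immediate early and cell cycle genes, and from each list up to 6 called members or the 2 largest differences. Because 1 gene was called, further list members and a second rule for large differences were chosen after their values were seen. The genes and lists were chosen with earlier results of these data known. Promoters come from RefSeq (GRCm38.p6). Large intestine was not used here. Alternatives changed the pseudocount, filter, scaling, windows, variance trend, fold threshold and libraries.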

Additional observations from a re-analysis of the deposited data

Results flagged for a closer look

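Of 15 genes whose values at 9 to 12 h were examined, Mdm2 had a library far from the other 3. The 12 h library held 36.4 FPKM, against 43.5 to 44.3 FPKM at 9 to 11 h. Chance alone marks about 1 in 20 such groups.

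The p53 genes whose early minus later difference in NIH3T3 departed from that of a tissue, by the limma interaction, were marked for this difference between systems. Against thymus the values on the log2 scale were 2.25 for Gadd45a, 2.14 for Cdkn1a, 1.98 for Plk3, 1.64 for Btg2, 1.58 for Sesn2, 1.40 for Plk2, 1.36 for Bbc3, 1.32 for Mgmt, 1.29 for Mdm2, 1.18 for Ak1 and 0.99 for Ier5. Against spleen they were 2.07 for Pidd1, 1.69 for Btg2, 1.59 for Mgmt, 1.43 for Sesn2, 1.40 for Gtse1, 1.34 for Zmat3, 1.24 for Gadd45a and 1.16 for Mdm2. For Mgmt and Ak1 the NIH3T3 difference itself was negative, at -0.33 and -0.32, and the thymus one more so, at -1.65 and -1.50. In spleen the Mgmt difference was -1.92. For Zmat3 the NIH3T3 difference was -0.06 and the spleen one -1.40. For Gadd45a, Plk2 and Ier5 the NIH3T3 difference was 0.25, 0.22 and 0.12, with windows that overlapped. The thymus difference was -1.19 for Plk2 and -0.87 for Ier5, and the spleen difference of Gadd45a was -0.98. Each tissue hour is 1 library.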

How the results depend on the processing

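No paired analysis was possible because each hour had 1 library and the replicate numbers only order the hours of a window. In NIH3T3, 1 gene was higher and 0 lower. The higher count was 0 with a pseudocount of 0.1, without the filter, after quantile normalization, with the libraries at 1 to 5 h alone, without the variance trend and at a log2 fold change of at least 1, and 4 with windows of 1 to 3 h and 4 to 5 h. It ran from 0 to 22 when 1 library was left out. The lower count was 1 at a mean FPKM of at least 5 and 1 with the shifted windows, and ran from 0 to 37 when 1 library was left out. Mdm2 lost its call under 8 of 15 alternatives and kept its direction under all 15, from 0.41 with the shifted windows to 0.99. Over 94 named genes, 26 of 1384 alternative values changed sign. The cause was not tested.

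Against thymus, 362 genes were positive and 102 negative. The shifted windows gave 98 and 8, the libraries at 1 to 5 h alone 135 and 16, a separate fit with NIH3T3 572 and 257, and the fold threshold 214 and 39, and quantile normalization gave 363 negative. Leaving out 1 library gave 91 to 723 and 3 to 440. Against spleen, 53 were positive and 49 negative. The shifted windows gave 17 and 8, the libraries at 1 to 5 h alone 4 and 8, and the fold threshold 35 and 25, and quantile normalization gave 100 positive. Leaving out 1 library gave 13 to 202 and 15 to 184. Against small intestine, a pseudocount of 0.1 gave 2 positive, and leaving out 1 library gave 0 to 31 positive and 0 to 5 negative. Moving the 3 h libraries to the early window ended 18 of the 19 calls on p53 genes. Depth is known only relative to the 0 h library, so counting error could not be separated from other spread.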
